A study of Mus musculus with 6 samples.

Results

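The genes described here are the collagens other than type IV, measured in the ectoderm of the mouse forelimb bud at E10.5, in embryos with and without the zinc-finger transcription factor Sp8. Members were taken by symbol from the deposited table, as every gene named Col, a type number, the letter a and a chain number, with the type IV genes set aside. This gave 38 collagen genes of 49452 genes in the table, all 38 annotated as protein coding, and the 6 type IV genes were kept for comparison. The limb ectoderm is the sheet of epithelium, with the apical ridge at its rim, that covers the bud and lies on a basement membrane over the limb mesenchyme. RNA was measured by sequencing in 6 libraries: 3 from Sp8 null embryos and 3 from wild-type embryos. Each library held the ectoderm of both forelimbs of 1 embryo, so the replicates were separate embryos. Parents of the wild-type embryos were inbred C57BL/6 mice, and parents of the null embryos were Sp8 +/- mice whose allele the labels call Sp8-Cre-ERT2. All 6 samples were labelled with the C57BL6J background and the limb ectoderm tissue, and the labels name no drug given to the animals. Wild-type and null embryos came from different crosses, so mother and litter cannot be told apart from genotype. The ectoderm was lifted off with fine forceps after trypsin, a step that can leave some mesenchyme attached.

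Collagens are proteins of 3 chains wound into a triple helix. Fibrillar collagens (types I, II, III, V, XI, XXIV and XXVII) build the banded fibrils of connective tissue and cartilage, and the fibril-associated collagens decorate those fibrils. Epithelia make another set: collagen XVII spans the membrane of basal cells in hemidesmosomes, collagen XVIII sits in the basement membrane, collagen VII forms the anchoring fibrils beneath it, and collagen XXIII is a transmembrane collagen of surface epithelia. The loose mesenchyme under the ectoderm makes types I, III, V, VI, XII and XIV, and prechondrogenic mesenchyme makes types II, IX and XI. Type II collagen is also known from the basement membranes of several embryonic epithelia, so a gene's usual source does not by itself name the cell that made its RNA in a mixed sample.

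Upstream sequence is shown for 3 genes that mark the contrasts below: Col17a1, the collagen that fell in the null ectoderm, Col18a1, the most abundant collagen of the epithelial list, whose level did not pass the test, and Col3a1, the collagen whose ratio to the mesenchymal gene Prrx1 varied least. Sequences come from RefSeq on GRCm38.p6, 5′ to 3′ on the gene's strand, and stop at the annotated start of the gene. Capitals mark 3 strings of letters and their reverse complements. GGGCGG, known as the GC box, is the kind of element that Sp-family factors bind. CCACCC, found in the CACCC box, is a related element, and TATAAA, the TATA box, is an element of the core promoter. The Col17a1 stretch is chr19:47692095-47692292 (minus strand), that of Col18a1 is chr10:77166549-77166780 (minus strand, ahead of the outermost of its 2 starts in the table), and that of Col3a1 is chr1:45311288-45311537 (plus strand).
Col17a1: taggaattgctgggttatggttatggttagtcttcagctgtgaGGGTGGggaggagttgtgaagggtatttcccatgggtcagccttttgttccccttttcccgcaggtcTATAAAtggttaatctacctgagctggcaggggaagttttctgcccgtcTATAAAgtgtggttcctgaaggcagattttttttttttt
Col18a1: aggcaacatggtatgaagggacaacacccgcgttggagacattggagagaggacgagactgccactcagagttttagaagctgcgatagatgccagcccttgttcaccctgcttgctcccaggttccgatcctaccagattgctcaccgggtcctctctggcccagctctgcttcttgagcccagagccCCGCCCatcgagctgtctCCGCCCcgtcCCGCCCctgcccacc
Col3a1: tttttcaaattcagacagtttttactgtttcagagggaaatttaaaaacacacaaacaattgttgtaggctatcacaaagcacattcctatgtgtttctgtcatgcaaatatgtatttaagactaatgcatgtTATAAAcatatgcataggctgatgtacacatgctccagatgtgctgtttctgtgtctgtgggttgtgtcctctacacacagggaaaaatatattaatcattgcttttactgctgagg
In the Col17a1 stretch, 2 TATAAA strings and 1 CACCC box on the other strand were found, and no GC box. Col18a1 had 3 GC boxes on the other strand, and Col3a1 had 1 TATAAA. Of 32851 RefSeq promoters, the 250 bases ahead of the start held a GC box in 32.7%, a CACCC box in 28.1% and a TATAAA in 12.4%, counting both strands. GC content of that 250-base window was 46.0% for Col17a1, 62.0% for Col18a1 and 35.2% for Col3a1. A letter match is a description of the sequence and not a bound site.

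Sp8 itself was measured at 0.766, 0.460 and 1.14 FPKM (fragments divided by transcript length and library size) in null embryos 1, 2 and 3 and at 8.35, 11.0 and 13.5 FPKM in wild-type embryos 1, 2 and 3, which matched the labels (log2 fold change -2.73, adjusted p = 0.000361). Genes at 1 FPKM or more numbered 11835 to 12245 per library, and depth relative to wild-type embryo 1, read from genes with few reads, ranged from 0.844 to 1.04. The surface epithelium list was detected in full in every library (18 of 18 genes tested, summed level 955 to 1287 FPKM), as the tissue label says. Limb mesenchyme markers were also present, and unevenly so. Their summed level was 64.2, 240 and 66.9 FPKM in null embryos 1, 2 and 3 and 112, 42.4 and 61.5 FPKM in wild-type embryos 1, 2 and 3. Each of the 16 mesenchyme markers tested was highest in embryo 2 among null embryos and in embryo 1 among wild-type embryos. Of the 16, 12 were higher in null (median 0.79 on the log2 scale), and Lmx1b passed the test (1.07, adjusted p = 0.0166), a call lost without wild-type embryo 2 (adjusted p = 0.0705) and without wild-type embryo 3 (0.0563). Erythroid markers summed to 162, 62.2 and 102 FPKM in null and 423, 36.3 and 11.6 FPKM in wild type, so wild-type embryo 1 was also the highest there. Macrophage markers, all below the filter for testing, summed to 1.13, 2.01 and 1.61 FPKM in null and 1.01, 0.0202 and 0.438 FPKM in wild type, without overlap, and the part of these markers in the results was not tested. Collagen values are therefore given library by library, and collagens with the library pattern of the mesenchyme list are given with and without null embryo 2. Col3a1, Col9a1, Col12a1 and Col23a1 are also given without wild-type embryo 1, the highest wild-type library for the mesenchyme markers. In these bulk samples, fewer cells of a type and less RNA per cell cannot be told apart.

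Collagen RNA in the forelimb ectoderm was dominated by a handful of genes. The members summed to between 114 and 147 FPKM per library, and Col2a1 and Col18a1 together held 42.4% to 72.6% of that sum. With Col1a2 and Col3a1 added, the share was 76.3% to 83.9%. Of the 38 collagens, 8 were at 1 FPKM or more in all 6 libraries, 17 reached 1 FPKM in at least 1 library, 21 stayed below 1 FPKM in every library and 10 stayed below 0.1 FPKM in every library. Only Col6a5, a type VI chain, was listed at 0 throughout. FPKM is scaled by transcript length, so these levels can be compared between genes.

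**Figure D1:**
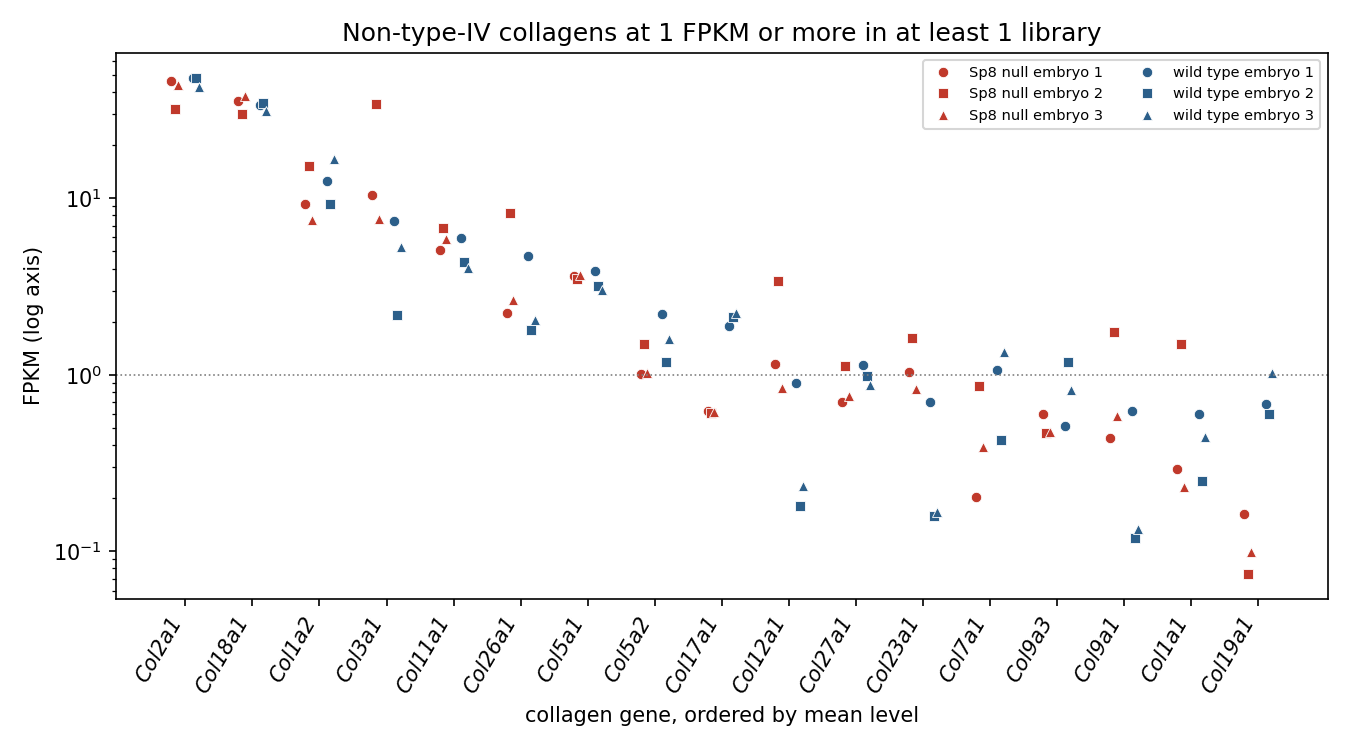
FPKM (log axis) of the 17 collagens that reached 1 FPKM in at least 1 library, ordered by mean level. Red marks are Sp8 null and blue marks wild type; circle, square and triangle are embryos 1, 2 and 3, and the dotted line is 1 FPKM. Col2a1 and Col18a1 stand at the top in every library except null embryo 2, where Col3a1 at 34.4 FPKM exceeds both, and the red and blue marks of Col17a1 and Col19a1 are apart.

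The question the design puts is which of these genes differ between Sp8 null and wild-type ectoderm. Testing used limma on log2(FPKM + 1), restricted to genes that reached 1 FPKM in 3 or more libraries, with p-values adjusted by Benjamini-Hochberg over all 12133 such genes and called at an adjusted p under 0.05. Fold changes on this scale understate the change of genes with low levels. This test covered 9 of the 38 collagens. Of the 9, 1 was called, and it was lower in the null ectoderm. Over all genes tested, 6.83% were called, and 5.15% were called lower, so 1 of 9 is close to the background. The median log2 fold change was 0.059 over the 9 collagens (5 higher, 4 lower) and -0.056 over all tested genes. To reach the low collagens, a second fit took genes that reached 0.1 FPKM in 3 or more libraries, on log2(FPKM + 0.1), a setting chosen after seeing the data. It covered 26 of the 38 collagens among 18788 genes and called 2, Col17a1 and Col19a1, both lower in null, against 3.94% of all genes it tested. In that fit 15 collagens were higher and 11 lower, with a median of 0.11 beside -0.031 for all genes.

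**Figure D2:**
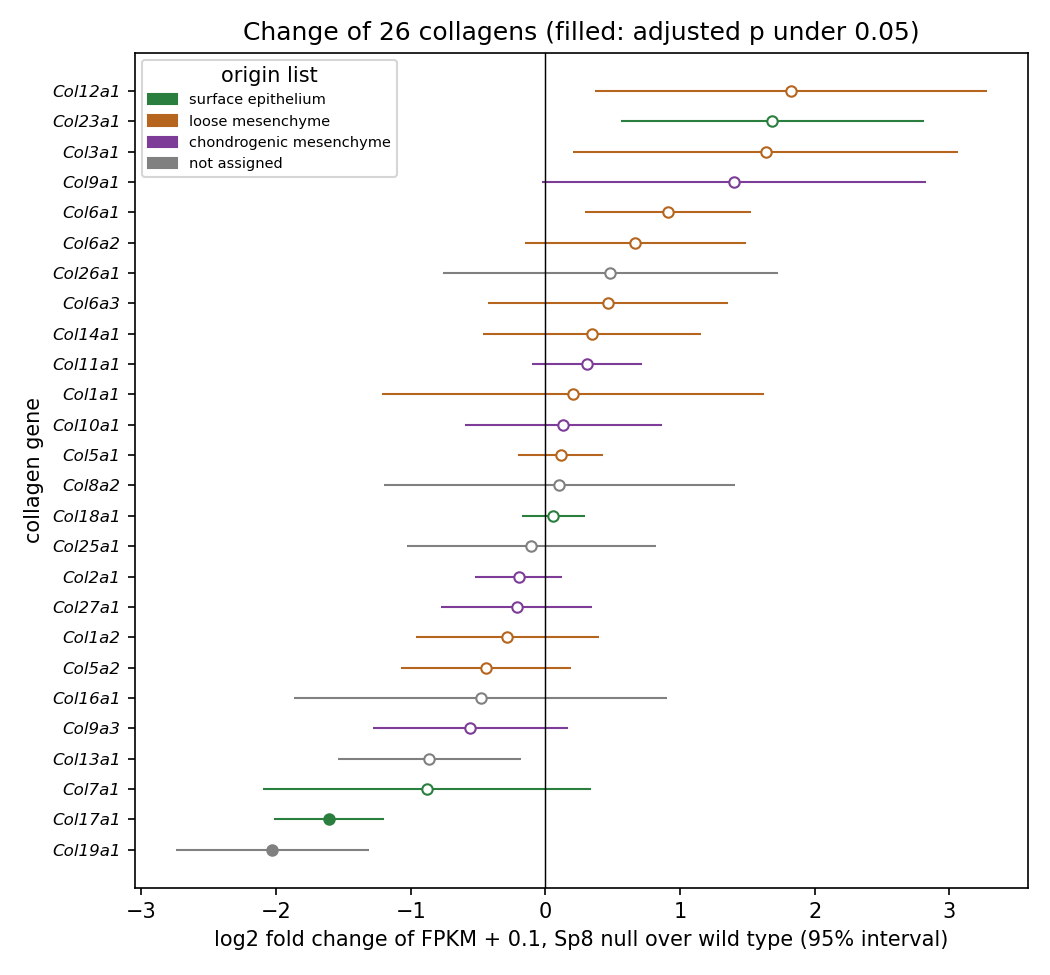
Log2 fold change of FPKM + 0.1, Sp8 null over wild type, for the 26 collagens of the second fit, with 95% intervals and colours for the usual source of each collagen. Filled points passed an adjusted p of 0.05, Col19a1 at -2.03 and Col17a1 at -1.61, while Col12a1 at 1.82 has an interval from 0.37 to 3.28 and did not pass.

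Col17a1, the hemidesmosomal collagen of basal epithelial cells, fell in the Sp8 null ectoderm. The gene (ENSMUSG00000025064) lies at chr19:47646344-47692094 on the minus strand of GRCm38. It was at 0.627, 0.610 and 0.612 FPKM in null embryos 1, 2 and 3 and at 1.90, 2.12 and 2.25 FPKM in wild-type embryos 1, 2 and 3. The groups did not overlap, and the null embryos lay within a few hundredths of an FPKM of each other, null embryo 2 included. Null embryos averaged 0.616 ± 0.00903 FPKM (SD, n = 3) and wild-type embryos 2.09 ± 0.178 FPKM (SD, n = 3), a 3.39-fold difference of means. Its log2 fold change was -0.93 (SE 0.11, 95% interval -1.18 to -0.68, adjusted p = 0.00346), and -1.61 with the smaller pseudocount (adjusted p = 0.00375). The call held in all 15 alternatives that tested the gene, with adjusted p from 0.00106 to 0.0275. Because every null value was below 1 FPKM, the gene passed the 1 FPKM filter through wild type alone, while under the 0.1 FPKM filter it passed in all 6 libraries. In the authors' deposited table its group means were 467 for wild type and 144 for null, with a signed fold change score of -2.96.

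The other hemidesmosome genes were measured beside it. Among 7 partners, 1 was called, against 6.83% of all genes: Itga6, the integrin chain alpha 6, was at 58.3, 53.2 and 70.0 FPKM in null embryos and 91.7, 105 and 90.3 FPKM in wild-type embryos (log2 fold change -0.66, adjusted p = 0.0163). The Itga6 call was lost without null embryo 1 (adjusted p = 0.0634) and without wild-type embryo 2 (adjusted p = 0.0675). Itgb4, the beta 4 chain that pairs with it, was at 0.797, 0.710 and 0.740 FPKM in null and 1.55, 1.30 and 2.15 FPKM in wild type. These Itgb4 groups did not overlap, and the adjusted p was 0.0505, which missed the threshold. Every null value of Itgb4 was below 1 FPKM, so it passed the filter through wild type alone. The basal keratin Krt5 averaged 65.9 ± 2.88 FPKM among null embryos and 80.4 ± 6.63 FPKM among wild-type embryos (SD, n = 3 each, adjusted p = 0.0800). For the linker Dst the averages were 19.1 ± 2.11 and 18.1 ± 1.99 FPKM (adjusted p = 0.736). The median log2 fold change of the 7 partners was -0.28. Of the 18 surface epithelium markers, Epcam (-0.53, adjusted p = 0.0313) and Cldn7 (-0.57, adjusted p = 0.0266) were also called lower, and the list's median was -0.044. The Epcam call held in 7 of 16 alternatives and was lost without any 1 library except null embryo 3 (adjusted p 0.0638 to 0.121). The Cldn7 call held in 8 of 16 and was lost without null embryo 3 (0.0545) or any 1 wild-type embryo (0.0747 to 0.0860). Whether the lower Col17a1 went with the number or kind of epithelial cells was not tested.

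Col18a1, the basement membrane collagen whose cleaved end is endostatin, did not share this pattern. It was at 35.8, 30.2 and 38.1 FPKM in null embryos 1, 2 and 3 and at 33.8, 34.6 and 31.1 FPKM in wild-type embryos 1, 2 and 3, and the groups overlapped. Its log2 fold change was 0.059 (95% interval -0.17 to 0.29, adjusted p = 0.758), so a change of the size seen for Col17a1 lies outside its interval. The ratio of Col18a1 to Col17a1 was 57.1, 49.4 and 62.2 in null and 17.8, 16.3 and 13.8 in wild type.

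The remaining epithelial collagens were low. Col7a1, the anchoring fibril collagen, was at 0.204 to 0.868 FPKM in null and 0.429 to 1.36 FPKM in wild type, with overlapping groups (-0.88 in the second fit, adjusted p = 0.412). The Col7a1 value was -1.32 without null embryo 2 and -0.49 without null embryo 1. Col23a1 was at 1.04, 1.62 and 0.832 FPKM in null embryos 1, 2 and 3 and at 0.702, 0.158 and 0.166 FPKM in wild-type embryos 1, 2 and 3. The Col23a1 groups did not overlap, but within each genotype the highest value was in the embryo with the most mesenchyme marker RNA. Its log2 fold change in the second fit was 1.69 (adjusted p = 0.108), 1.44 without null embryo 2 (adjusted p = 0.272), and 2.22 without wild-type embryo 1 (adjusted p = 0.0286), so that library decides the call. The 4 collagens listed as epithelial therefore did not move together: 2 were higher and 2 lower, with a median of -0.41 in the second fit, and their summed level of 33.3 to 39.9 FPKM was mostly Col18a1. Among type IV collagens, the sheet-forming collagens of the same basement membrane, 4 of 6 were tested and none was called. Col4a1 was at 13.1 FPKM in both groups, and Col4a5, the 1 with an unadjusted limma p under 0.05 (0.0356), had a log2 fold change of 0.35 (adjusted p = 0.172).

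**Figure D3:**
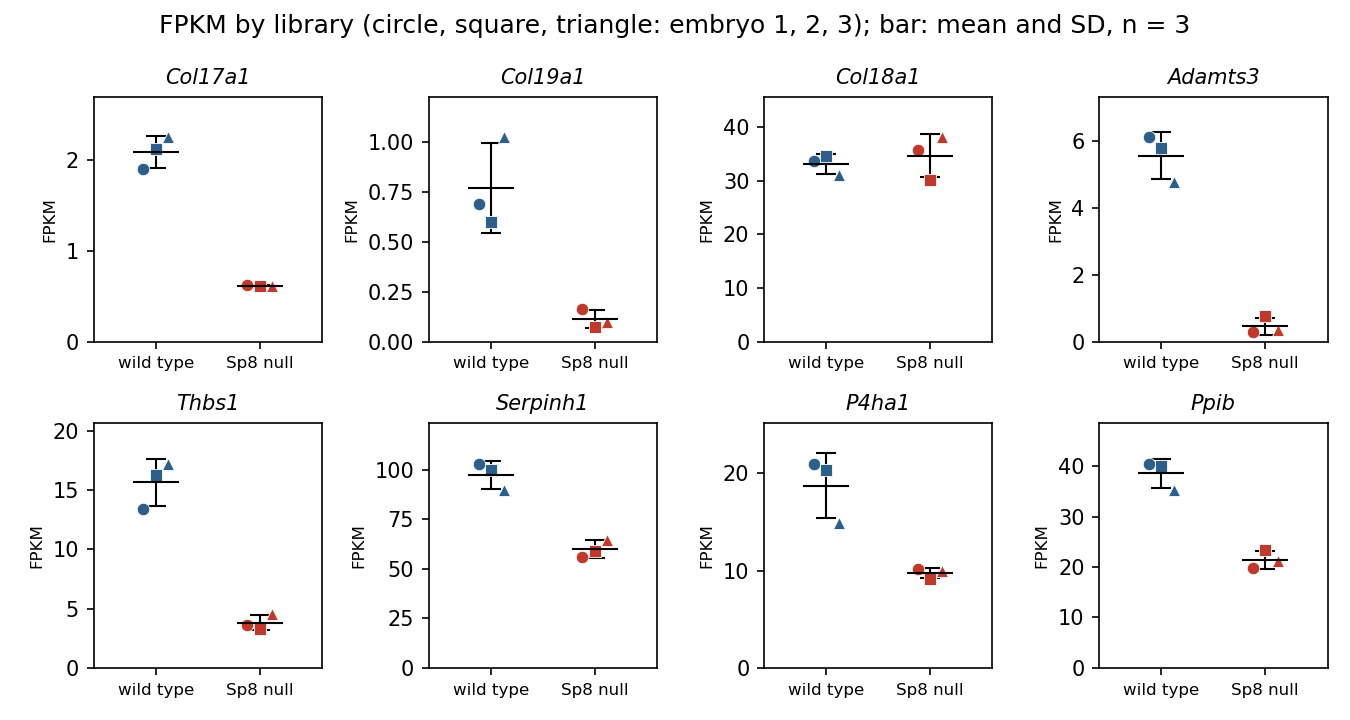
FPKM of Col17a1, Col19a1, Col18a1 and 5 genes of collagen biosynthesis and matrix in each library, with wild type in blue and Sp8 null in red; the bar is the mean and its whiskers the SD (n = 3), and every axis starts at 0. Col18a1 overlaps between genotypes around 30 to 38 FPKM, while in the other 7 panels every null value lies below every wild-type value.

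Col19a1, a fibril-associated collagen found at basement membrane zones, was the other collagen that fell. Its gene lies at chr1:24261890-24587472. It was at 0.162, 0.0745 and 0.0992 FPKM in null embryos 1, 2 and 3 and at 0.687, 0.598 and 1.02 FPKM in wild-type embryos 1, 2 and 3. Every null embryo lay below every wild-type embryo. The log2 fold change was -2.03 (SE 0.31, 95% interval -2.75 to -1.31, adjusted p = 0.0148) in the second fit, and -0.66 with a pseudocount of 1. The call was lost without wild-type embryo 3 (adjusted p = 0.0572). With 2 null values below 0.1 FPKM, the gene passed the filter through wild type. The authors' deposited table gave means of 168 and 26.2 with a signed score of -3.89. Its neighbour Col9a1, 9.21 kb away on the same chromosome, went the other way at 0.437, 1.75 and 0.585 FPKM in null and 0.621, 0.119 and 0.135 FPKM in wild type (1.40, adjusted p = 0.262, and 0.86 without null embryo 2, adjusted p = 0.530). Without wild-type embryo 1 the Col9a1 value was 1.96 (adjusted p = 0.145).

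Of the 10 collagens of loose mesenchyme, 8 were higher and 2 lower in null embryos in the second fit. Their median was 0.41 on the log2 scale, beside -0.031 for all genes. None was called, and their sum was highest in null embryo 2. Of the 10, 3 had an unadjusted limma p under 0.05 (Col3a1, Col6a1 and Col12a1), against 19.6% of all genes in that fit. Their summed level was 26.8, 60.9 and 22.3 FPKM in null embryos 1, 2 and 3 and 28.3, 17.0 and 27.7 FPKM in wild-type embryos 1, 2 and 3, so null embryo 2 alone lay above the wild-type range. Of the 10, 7 were highest in null embryo 2 among null embryos.

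Col3a1, the fibrillar collagen of loose connective tissue, showed the widest swing among abundant members. It was at 10.4, 34.4 and 7.61 FPKM in null embryos 1, 2 and 3 and at 7.43, 2.19 and 5.32 FPKM in wild-type embryos 1, 2 and 3. The groups did not overlap, but null embryo 3 and wild-type embryo 1 nearly met. The log2 fold change was 1.45 (SE 0.55, 95% interval 0.17 to 2.74), and it missed the threshold after adjustment (adjusted p = 0.163). It was 0.84 without null embryo 2 (adjusted p = 0.299), 1.75 without wild-type embryo 1 (adjusted p = 0.173) and 0.76 with the mesenchyme markers as a covariate (adjusted p = 0.0969). Col3a1 spanned a 15.7-fold range over the libraries, and its ratio to Prrx1, a transcription factor of limb mesenchyme, spanned 1.71-fold. That ratio was 0.770, 0.644 and 0.636 in null embryos 1, 2 and 3. In wild-type embryos 1, 2 and 3 it was 0.451, 0.559 and 0.536, so the groups did not overlap. Prrx1 itself was at 13.6, 53.3 and 11.9 FPKM in null and at 16.5, 3.92 and 9.93 FPKM in wild type.

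Type I collagen, the main collagen of most connective tissue, had very unequal chains. Col1a2, the alpha 2 chain, was at 9.26, 15.3 and 7.53 FPKM in null embryos 1, 2 and 3 and at 12.5, 9.25 and 16.7 FPKM in wild-type embryos 1, 2 and 3. The groups overlapped (log2 fold change -0.26, 95% interval -0.89 to 0.37, adjusted p = 0.611). The value was -0.53 without null embryo 2 and -0.0593 without null embryo 3. Col1a1, the alpha 1 chain, was at 0.291, 1.50 and 0.232 FPKM in null and 0.604, 0.251 and 0.447 FPKM in wild type (0.21 in the second fit, adjusted p = 0.892, and -0.51 without null embryo 2). The Col1a2 to Col1a1 ratio was 31.8, 10.2 and 32.4 in null and 20.7, 36.8 and 37.3 in wild type, lowest in null embryo 2 and next lowest in wild-type embryo 1. Those are the embryos with the most mesenchyme marker RNA of each genotype. In the authors' deposited table the wild-type means were 2587 for Col1a2 and 105 for Col1a1, so the inequality was present in both sets of values. Type I collagen is assembled as a trimer with more alpha 1 than alpha 2 chains, an order opposite to these RNA levels. The ratio of Col3a1 to Col1a1 was 35.9, 22.9 and 32.8 in null and 12.3, 8.72 and 11.9 in wild type, apart between genotypes.

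Type V and type VI collagens completed the mesenchymal list. Col5a1, a chain that sets fibril width, was at 3.49 to 3.69 FPKM in null and 3.02 to 3.85 FPKM in wild type (0.089, adjusted p = 0.653). Col5a2, its usual partner chain, was at 1.01 to 1.50 FPKM and 1.18 to 2.22 FPKM (-0.28, adjusted p = 0.375, and -0.38 without null embryo 2), and the Col5a1 to Col5a2 ratio ran from 1.73 to 3.58. Both pairs of groups overlapped. Col6a1, a chain of the beaded filaments, was at 0.363, 0.332 and 0.438 FPKM in null and at 0.130, 0.174 and 0.157 FPKM in wild type, without overlap. Its change was 0.91 in the second fit with an adjusted p of 0.111, and null embryo 2 was its lowest null library, so it did not have the library pattern of the mesenchyme markers. The other type VI chains tested, Col6a2 (0.67, adjusted p = 0.355, and 0.47 without null embryo 2) and Col6a3 (0.47, adjusted p = 0.564, and 0.15 to 0.76 with libraries left out), overlapped between groups. Col12a1, a fibril-associated collagen, was at 1.15, 3.41 and 0.838 FPKM in null and at 0.895, 0.180 and 0.234 FPKM in wild type (1.82, adjusted p = 0.165, and 1.26 without null embryo 2, adjusted p = 0.350). Without wild-type embryo 1 the Col12a1 value was 2.39 (adjusted p = 0.0960). Col14a1, a related collagen, reached only 0.216 FPKM (0.35, adjusted p = 0.642, and 0.12 without null embryo 2).

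Collagens of cartilage were led by Col2a1, the most abundant collagen overall. It was at 46.2, 32.1 and 44.0 FPKM in null embryos 1, 2 and 3 and at 47.7, 48.1 and 42.9 FPKM in wild-type embryos 1, 2 and 3. The groups overlapped, and the lowest value was in null embryo 2, the library with the most mesenchyme marker RNA. The log2 fold change was -0.19 (95% interval -0.51 to 0.12, adjusted p = 0.440), and -0.0338 without null embryo 2. The cartilage matrix markers were mixed. Matn1 was 0 in every library, and Acan and Matn4 did not exceed 0.0224 FPKM. Hapln1, a link protein of cartilage and other matrices, was at 102, 74.9 and 95.4 FPKM in null and 69.2, 84.1 and 76.2 FPKM in wild type (0.24, adjusted p = 0.308). Sox9, the transcription factor known to drive Col2a1 in cartilage, was present and was called higher in null, at 15.0, 13.7 and 14.2 FPKM in null against 7.16, 6.84 and 5.49 FPKM in wild type (1.03, adjusted p = 0.00182). The Sox9 call held in all 16 alternatives, while no alternative called Col2a1.

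The partners of type II collagen were far lower. Col11a1, which nucleates cartilage fibrils, was at 5.12 to 6.76 FPKM in null and 4.04 to 5.96 FPKM in wild type (0.27, adjusted p = 0.329, and 0.18 without null embryo 2). Col11a2, its partner chain, reached only 0.0324 FPKM, and the Col11a1 to Col11a2 ratio ran from 125 to 1078. Among type IX chains, which coat type II fibrils, Col9a3 was at 0.469 to 0.598 FPKM in null and 0.512 to 1.18 FPKM in wild type (-0.56, adjusted p = 0.383, and -0.83 to -0.30 with libraries left out). Col9a2 stayed below 0.1 FPKM. The ratio of Col9a3 to Col9a1 ran from 0.268 in null embryo 2 to 9.94 in wild-type embryo 2, so the type IX chains did not keep a fixed proportion between libraries. Col9a3 shares 234 exon bases with Tcfl5 on the opposite strand, and without a stated use of strand their reads cannot be told apart. Col27a1, a fibrillar collagen of cartilage, was at 0.698 to 1.14 FPKM (-0.21, adjusted p = 0.684, and -0.40 without null embryo 2), and Col10a1, a marker of hypertrophic cartilage, did not exceed 0.229 FPKM (0.13, adjusted p = 0.856, and -0.072 without null embryo 2). As a list the 6 chondrogenic collagens in the second fit were 3 higher and 3 lower, and their median was -0.032.

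**Figure D4:**
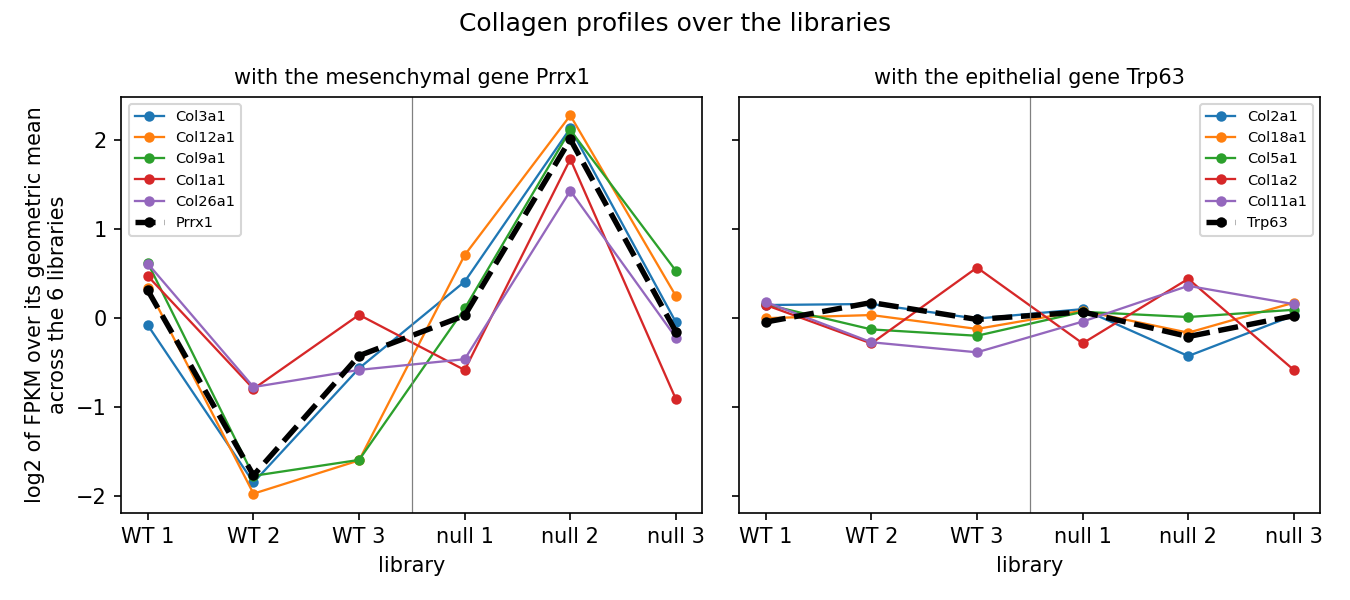
Log2 of each gene's FPKM over its geometric mean across the 6 libraries. At left, 5 collagens with the mesenchymal gene Prrx1 (dashed); at right, the 5 abundant collagens Col2a1, Col18a1, Col5a1, Col1a2 and Col11a1 with the epithelial gene Trp63 (dashed). The left-hand collagens peak with Prrx1 in null embryo 2. At right, Col2a1, Col18a1 and Col5a1 are lowest of the null embryos there, as Trp63 is, while Col1a2 and Col11a1 are highest there.

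Library profiles set the collagens apart in a way that cuts across their usual sources. Among the 26 collagens of the second fit, 12 were highest in null embryo 2 among null embryos and in wild-type embryo 1 among wild-type embryos, the pattern of all 16 mesenchyme markers. The same pattern held for 16.7% of all genes at that level. The 12 were Col1a1, Col3a1, Col5a2, Col6a2, Col9a1, Col10a1, Col11a1, Col12a1, Col14a1, Col23a1, Col26a1 and Col27a1. In 10 others null embryo 2 was the lowest null library: Col2a1, Col5a1, Col6a1, Col8a2, Col9a3, Col13a1, Col17a1, Col18a1, Col19a1 and Col25a1. The null order alone does not place a gene in a cell type, and with 3 embryos per genotype it is a description.

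Each collagen was also divided by a marker gene. Prrx1 spanned 13.6-fold over the 6 libraries and Trp63, a transcription factor of basal epithelium, spanned 1.30-fold, so a collagen that varied little over the libraries must have a narrower ratio to Trp63. For 7 of the 26 collagens the ratio to Prrx1 spanned a narrower range than the ratio to Trp63: Col1a1, Col3a1, Col6a2, Col9a1, Col12a1, Col23a1 and Col26a1. For 6 of these, all but Col6a2, the ratio to Prrx1 also spanned less than the undivided level. All 7 were among the 12 with the library pattern of the markers, and Col5a2, Col10a1, Col11a1, Col14a1 and Col27a1 were in the 12 alone. Col12a1 spanned 18.9-fold undivided, 3.61-fold per Prrx1 and 24.6-fold per Trp63. Col9a1 spanned 14.7-fold undivided, 3.61-fold per Prrx1 and 19.2-fold per Trp63. Col23a1, listed as epithelial, spanned 10.2-fold, 4.60-fold and 13.3-fold in the same order. Undivided, Col2a1 spanned 1.50-fold, Col18a1 1.26-fold, Col5a1 1.28-fold and Col1a2, a mesenchymal gene by its usual source, 2.22-fold, all well under the 13.6-fold of Prrx1. Mesenchymal genes were not all alike either: Pdgfra was at 6.37, 19.6 and 6.01 FPKM in null and 23.8, 19.8 and 21.4 FPKM in wild type. Which cells made these RNAs was not tested.

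Col26a1, which belongs to none of the larger collagen classes, was at 2.24, 8.27 and 2.64 FPKM in null embryos 1, 2 and 3 and at 4.70, 1.80 and 2.06 FPKM in wild-type embryos 1, 2 and 3. The groups overlapped (log2 fold change 0.39, adjusted p = 0.632), and the sign turned without null embryo 2 (-0.0896) and with the mesenchyme markers as a covariate (-0.17). Among transmembrane collagens other than Col17a1 and Col23a1, Col13a1 was at 0.110, 0.0713 and 0.150 FPKM in null and at 0.279, 0.309 and 0.247 FPKM in wild type. The Col13a1 groups did not overlap, and the adjusted p was 0.160 (-0.86). Col25a1 was at 0.173 to 0.605 FPKM (-0.10, adjusted p = 0.920). Col16a1, a fibril-associated collagen, was at 0.130 to 0.946 FPKM (-0.48, adjusted p = 0.711, and -1.02 to -0.0283 with libraries left out). Col8a2, a short-chain network collagen, was at 0.0283 to 0.503 FPKM (0.10, adjusted p = 0.944). The authors' deposited table gave Col8a2 means of 9.82 in wild type and 30.6 in null. Mean FPKM of Col8a2 went the other way, at 0.212 in wild type and 0.171 in null.

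In all, 6 of the 26 collagens had groups without overlap: Col3a1, Col6a1, Col13a1, Col17a1, Col19a1 and Col23a1. Among all genes of that fit 25.5% had no overlap, so 6 of 26 lies near the background. The 12 collagens under both filters were Col5a3, Col6a4, Col6a5, Col6a6, Col8a1, Col9a2, Col11a2, Col15a1, Col20a1, Col22a1, Col24a1 and Col28a1. The highest of these was Col24a1, which reached 0.292 FPKM in null embryo 2. Col15a1, the relative of Col18a1 found in basement membranes of vessels and muscle, was at 0.178, 0.0596 and 0.0147 FPKM in null embryos 1, 2 and 3 and was listed at 0 in each wild-type library. The authors' deposited table gave Col15a1 means of 0.71 in wild type and 6.34 in null, so the wild-type RNA was not wholly absent there. Endothelial markers were low in every library, with summed levels of 4.61, 3.52 and 2.57 FPKM in null and 2.23, 2.87 and 3.23 FPKM in wild type. Of the 11 endothelial genes, 1 was tested and not called (Egfl7, 0.15, adjusted p = 0.595).

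Several genes that make collagen chains ready for secretion fell in the null ectoderm. Of 22 listed genes for chain modification and folding, 19 were tested and 7 were called, all 7 lower, beside 5.15% of all genes called lower, and 2 of the 19 were higher in direction. The list was chosen with earlier results of these data known, so its share of calls is a description and not an independent test. With each library left out in turn, 5 to 7 of its genes were called lower. The list's median was -0.36 on the log2 scale, beside -0.056 for all genes. Serpinh1, the collagen-specific chaperone HSP47, was at 55.8, 59.2 and 64.5 FPKM in null and 103, 99.8 and 89.5 FPKM in wild type (-0.69, adjusted p = 0.00413). Ppib, the prolyl isomerase that works with the prolyl 3-hydroxylase complex, was at 19.7, 23.3 and 21.3 FPKM in null and 40.5, 39.9 and 35.3 FPKM in wild type (-0.82, adjusted p = 0.00258). In both genes every null value lay below every wild-type value, and null embryo 2 did not stand apart. Of the prolyl 4-hydroxylase chains, whose enzyme stabilises the triple helix, 3 fell: P4ha1 (-0.86, adjusted p = 0.0107), P4ha2 (-0.79, adjusted p = 0.00713) and the shared beta chain P4hb (-0.47, adjusted p = 0.0181). The other listed chain, P4ha3, was below the filter, with means of 0.115 FPKM in null and 0.0989 FPKM in wild type. P3h2, a prolyl 3-hydroxylase, fell by 0.65 on the log2 scale (adjusted p = 0.0120), and Hspa5, a general chaperone of the endoplasmic reticulum, by 0.50 (adjusted p = 0.0448).

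The calls for Serpinh1, Ppib and P4ha2 held in all 16 alternatives. That for P4hb was lost without null embryo 1 (adjusted p = 0.0674), null embryo 2 (0.0631), wild-type embryo 1 (0.0657) and wild-type embryo 2 (0.0843), and that for Hspa5 held in 5 of 16. Plod3 (-0.48, adjusted p = 0.0506) and Crtap (-0.59, adjusted p = 0.0501) missed the threshold by little. P4hb and Hspa5 also serve proteins other than collagen, so the list is not specific to collagens. The summed level of the 38 collagens was 118 to 147 FPKM in null embryos and 114 to 129 FPKM in wild-type embryos, with overlapping groups.

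Among genes of procollagen processing, the call of the fit at 1 FPKM was Adamts3, a protease that removes the amino-terminal propeptide of procollagens and also takes part in the activation of Vegfc. It was at 0.280, 0.754 and 0.348 FPKM in null embryos 1, 2 and 3 and at 6.10, 5.78 and 4.76 FPKM in wild-type embryos 1, 2 and 3. The groups were far apart, with a log2 fold change of -2.17 (SE 0.15, adjusted p = 0.000352), and the call held in all 15 alternatives that tested it. Every null value was below 1 FPKM, so the gene passed the filter through wild type alone. It was the only call of the 4 tested among 13 genes for propeptide cleavage and cross-linking, beside 6.83% of all genes called. With 4 genes tested, this count does not describe the list. Pcolce2, an enhancer of the carboxy-terminal cleavage, was below the filter at 0.0704, 0.126 and 0.154 FPKM in null and at 1.54, 1.09 and 0.886 FPKM in wild type, also without overlap. The second fit covered Pcolce2 and called it lower (-2.54, adjusted p = 0.00539). For Bmp1, which cleaves the carboxy-terminal propeptide, null embryos averaged 4.05 ± 0.613 FPKM and wild-type embryos 4.52 ± 0.471 FPKM (SD, n = 3 each, adjusted p = 0.565).

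Among 16 matrix proteins that bind collagen fibrils, 8 were tested, 1 was called lower and 1 higher, beside the 6.83% of all genes called. Thbs1, thrombospondin 1, was at 3.60, 3.32 and 4.54 FPKM in null and 13.5, 16.3 and 17.3 FPKM in wild type (-1.79, adjusted p = 0.000389, called in all 16 alternatives). Postn, periostin, was at 2.44, 4.33 and 3.71 FPKM in null and 1.29, 0.989 and 1.83 FPKM in wild type (0.91, adjusted p = 0.0377). That Postn call held in 8 of 15 alternatives and was lost without null embryo 2 (adjusted p = 0.109), null embryo 3 (0.0908), wild-type embryo 1 (0.0985) or wild-type embryo 2 (0.130). Of 9 collagen receptors 4 were tested, and Itgb1, the beta 1 integrin chain, was called lower at 34.1 ± 2.09 FPKM against 46.4 ± 3.26 FPKM (SD, n = 3 each, -0.43, adjusted p = 0.0217). It was lost without null embryo 1 (0.0721), null embryo 2 (0.0715), wild-type embryo 1 (0.0773) or wild-type embryo 2 (0.0997). Itga2, the collagen-binding alpha 2 chain, was below the filter at 0.173, 0.179 and 0.160 FPKM in null and 0.617, 0.398 and 0.649 FPKM in wild type. Pcolce2 and Itga2 were singled out after their values were seen.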

How the data were processed

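The authors deposited a single table with FPKM for each gene and library, on Ensembl 87 gene models per the file headers. It also held a mean per group (a normalized signal), a signed fold-change score and a p-value, per the file headers. The submitters' processing notes name FastQC, TopHat2, SAMtools, Cufflinks and DESeq2 on GRCm38. Strand use was not given in the sources used here. The deposited means, scores and p-values were only described; their test is not stated, and 34 p-values of 0 stood out of sorted order, so no deposited p-value is used. No whole read counts could be recovered from the FPKM, so depth is relative.

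The model was limma (version 3.58.1, R version 4.3.3; trend, genotype only, two-sided, Benjamini-Hochberg over all tested genes), on log2(FPKM + 1) of genes reaching 1 FPKM in 3 or more libraries. The fit was tested on simulated data. Alternatives changed the pseudocount, filter, scaling, trend, failed estimates, name number, replicate block, mesenchyme covariate and each library. A second fit used 0.1 FPKM and a pseudocount of 0.1. Named were all collagens (members under the filter by highest value), the called genes of each list or its smallest p, and Sp8; other genes named were chosen after their values were seen. The members and lists were chosen with earlier results of these data known. Origin lists held usual sources. Of the other markers, erythroid had 5 of 7 tested, none called (Alas2 0.30, adjusted p = 0.636), muscle 1 of 5 (Met 0.31, adjusted p = 0.176), neural crest 1 of 7 (Erbb3 0.10, adjusted p = 0.572) and macrophage 0 of 9 (highest 0.826 FPKM). Annotation was GENCODE M21 on GRCm38. Promoters were matched for 30 of 38 members. Figures used matplotlib 3.10.9.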

Additional observations from a re-analysis of the deposited data

How the results depend on the processing

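All 829 called genes fell to 342 without a filter, 545 with the first digit of the sample names as a covariate, 525 with the mesenchyme covariate, and 316 to 642 when each library was left out. The number of collagens called was 0 with at least 5 FPKM, since Col17a1 then left the test. In the second fit, 740 genes became 430 with the mesenchyme covariate and 251 to 561 with libraries left out, and its 2 collagens became 1 to 3. Embryo numbers did not pair the samples (correlations of deviations -0.164, -0.145 and -0.07). With the replicate block, 328 genes were called, and in the second fit 241 genes and 1 collagen, Col17a1. Log2 fold changes turned sign for Col18a1 (-0.01 without null embryo 3, range over left-out libraries to 0.15), Col26a1 (-0.17 with the mesenchyme covariate, range over left-out libraries -0.0896 without null embryo 2 to 0.71), Col8a2 (-0.0295 with a pseudocount of 1, left-out libraries -0.38 to 0.74, negative without wild-type embryo 1 or 3), Col10a1 (-0.0324 with the covariate, left-out libraries -0.072 without null embryo 2 to 0.27), Col1a1 (-0.51 with the covariate, left-out libraries -0.51 to 0.62, negative without null embryo 2 or wild-type embryo 2), Col25a1 (left-out libraries -0.37 to 0.31, positive without wild-type embryo 1) and Alas2 (-0.082 with the covariate). The cause was not tested. The share of calls that were higher was 24.6%, and 32.3% and 41.7% under median-of-ratios and upper-quartile scaling, which moved the median of all genes by 0.0373 and 0.0822. The 7 chain modification and folding genes called lower ranged from 4 to 9. FPKM without counts gives no counting interval, so the precision of members below 1 FPKM is unknown.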

Other observations

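Several collagen genes lie next to each other in the genome. Col3a1 and Col5a2 are 24.6 kb apart on chromosome 1, with log2 fold changes of 1.45 (adjusted p = 0.163) and -0.28 (adjusted p = 0.375), neither called. Col6a2 and Col6a1, 85.2 kb apart on chromosome 10, were both at higher means in null embryos (0.67 and 0.91 in the fit at 0.1 FPKM), and neither passed the test. The next collagen on that chromosome, Col18a1, lies 326 kb from Col6a1 and was at 33.1 ± 1.85 FPKM in wild type, against 0.154 ± 0.0222 FPKM for Col6a1 (SD, n = 3 each). The chromosome 9 cluster of Col6a6, Col6a5 and Col6a4 stayed at or below 0.0409 FPKM in every library.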
